A study of Mus musculus with 2 samples.

Results

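Germline genes are transcribed in germ cells and kept largely silent in other cells, and 10 of them were followed here in single mouse pluripotent cells: Stra8, Dmrt1, Dazl, Ddx4, Mael, Sycp1, Sycp3, Hormad1, Tex101 and Mov10l1. They are 10 of the 32286 features in the count matrices and were picked by name with earlier results of these data known, so their levels are given as a description. All 10 were found in both libraries and all 10 passed the filter on low values in each comparison.

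Both libraries were made by droplet-based single-cell RNA sequencing (scRNA-seq), one from embryonic stem cells (ESCs, 0 h) grown in serum and LIF on mitomycin-treated mouse embryonic fibroblasts as feeders, and one from epiblast-like cells after 48 h in activin A, bFGF and 1% KSR on Matrigel (48h-EpiLCs). Each library was a mixture, in equal cell numbers, of wild-type (WT) cells and Cnot8 knockout (KO) cells, both of the ICR strain. The genotype field of the labels reads wild type for both libraries, against titles and protocols that describe the mixture, and the mixture is taken as described. WT cells carry the ROSA mT/mG reporter, which makes tdTomato RNA, and KO cells are labelled as lacking Cnot8, a deadenylase subunit of the Ccr4-Not complex, after CRISPR targeting of exon 2, in ESCs derived from blastocysts of heterozygous parents. How many lines or clones of each genotype went into the mixture is not given in the sources used here, and there was 1 library per stage.

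WT cells were taken as those with at least 1 tdTomato UMI (unique molecular identifier, 1 captured RNA molecule) and no UMI of the Y-linked genes Ddx3y, Eif2s3y, Kdm5d and Uty. KO cells were taken as those with no tdTomato UMI and at least 2 UMIs of these genes. This gave 435 WT and 2978 KO cells among 11054 ESCs kept, and 368 WT and 2977 KO cells among 9400 48h-EpiLCs kept. Genotype, Y-linked transcripts and line of origin therefore cannot be told apart, nor can stage and library, and with no replicate library no test could be run. A further 82 ESCs and 84 48h-EpiLCs carried both tdTomato and Y-linked UMIs and were left out. Also left out were 7559 ESCs and 5971 48h-EpiLCs without tdTomato and with 0 or 1 Y-linked UMI, which must hold cells of both lines. The WT classes made up 3.94% and 3.91% of kept cells. They held 468 tdTomato UMIs in 435 ESCs and 394 in 368 48h-EpiLCs, so most WT calls rest on 1 molecule. A KO cell without Y-linked UMIs that took up 1 free tdTomato molecule would count as WT.

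Cnot8 RNA itself was not lower in the KO cells. In ESCs WT cells had 43.1 CPM (Cnot8 UMIs per 1000000 UMIs of the class; 38.0 to 48.6) and KO cells 72.1 CPM (69.6 to 74.6). WT 48h-EpiLCs had 49.7 CPM (44.3 to 55.5) and KO 48h-EpiLCs 62.6 CPM (60.6 to 64.6). A deletion in exon 2 need not remove the 3′ end that this assay counts, so these values check neither label. Median depth was 13151 UMIs per WT ESC, 13368 per KO ESC, 15598 per WT 48h-EpiLC and 17628 per KO 48h-EpiLC. Pluripotency was checked with Pou5f1, Sox2, Nanog, Zfp42, Esrrb and Utf1. Their summed level was 1459 CPM in WT and 1803 CPM in KO ESCs and 1039 CPM and 1274 CPM in 48h-EpiLCs. Utf1 was the largest part of each sum (653, 774, 766 and 937 CPM in the same order). In KO ESCs Zfp42 (304 CPM in WT, 603 CPM in KO), Esrrb and Utf1 were higher. Pou5f1 (99.8 and 75.5 CPM), Sox2 (269 and 237 CPM) and Nanog (84.5 and 56.1 CPM) were lower there. The sums therefore do not rank the lines. In 48h-EpiLCs 4 of 6 (WT) and 3 of 6 (KO) were lower by 2-fold or more than in ESCs. Altogether 41 barcodes occurred in both libraries, of which 26 were kept in both. Here and below, ranges in parentheses are exact 95% intervals (Poisson for CPM, binomial for shares of cells and for ratios), and they cover counting error only.

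Germline genes are held silent in the embryo and in pluripotent cells by DNA methylation at CpG-rich promoters, by H3K9 methylation and by the Polycomb complex PRC1.6. Within PRC1.6, Mga and Max bind the E-box CACGTG and E2f6 with Tfdp1 binds an E2F-type site. When germ cells form, this silencing is lifted, and genes for meiotic entry, the synaptonemal complex and transposon control become active.

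Of the 10 genes, 9 had an entry in the RefSeq promoter table (GRCm38.p6), and the 250 bases before the transcription start were searched on both strands for CACGTG, for the E2F-type letters TCCCGC or GCGGGA, and for the CCAAT box (CCAAT or ATTGG). The E-box was found in 6 of 9 (Ddx4, Hormad1, Mael, Mov10l1, Sycp1 and Sycp3), against 6.05% of 27025 genes. The E2F-type letters were found in 4 of 9 (Ddx4, Hormad1, Mael and Sycp3), against 16.9% of genes, and a CCAAT box in 6 of 9 (Dazl, Ddx4, Mael, Mov10l1, Stra8 and Tex101), against 34.5%. The median number of CG dinucleotides was 18 in the 9 promoters and 6 over all genes. CACGTG and the E2F-type letters each hold a CG. The 9 windows were not set against windows of like CG content, so their shares are no measure of enrichment. A match of letters is a description of the window and not a binding site.

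Among the genes printed below, Sycp1 and Tex101 were higher in KO cells by 2-fold or more at both stages. Hormad1 was also higher in KO cells at both stages, at 1.61-fold (1.34 to 1.95) in ESCs and 2.08-fold (1.61 to 2.72) in epiblast-like cells. Sycp3 was 1.30-fold higher (1.01 to 1.70) in KO ESCs, and its interval in epiblast-like cells included 1. The 4 promoters that follow are Sycp1, which holds an E-box, Hormad1 and Sycp3, which hold an E-box and the E2F-type letters, and Tex101, which holds neither. Each is the 250 bases before the RefSeq start, 5′ to 3′ on the gene's strand, at chr3:102936101-102936350 (minus strand) for Sycp1, chr3:95559427-95559676 (plus) for Hormad1, chr10:88459337-88459586 (plus) for Sycp3 and chr7:24672051-24672300 (minus) for Tex101, and the capitals mark CACGTG and the E2F-type letters. RefSeq and GENCODE starts differ for several of the genes: by the GENCODE exons, 18 bases of the Sycp3 window are exonic and none of the other 3, and the Tex101 window lies within the GENCODE span of the gene. The windows of Stra8 (250 exonic bases), Ddx4 (165) and Mov10l1 (85) lie partly or wholly in GENCODE exons of the same gene and are not printed, and their motif matches are to be read with that in mind.
Sycp1: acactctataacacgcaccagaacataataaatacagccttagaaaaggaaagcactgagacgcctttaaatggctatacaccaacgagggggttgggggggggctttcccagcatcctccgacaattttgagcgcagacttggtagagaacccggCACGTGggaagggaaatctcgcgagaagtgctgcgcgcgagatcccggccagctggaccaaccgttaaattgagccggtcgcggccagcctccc
Hormad1: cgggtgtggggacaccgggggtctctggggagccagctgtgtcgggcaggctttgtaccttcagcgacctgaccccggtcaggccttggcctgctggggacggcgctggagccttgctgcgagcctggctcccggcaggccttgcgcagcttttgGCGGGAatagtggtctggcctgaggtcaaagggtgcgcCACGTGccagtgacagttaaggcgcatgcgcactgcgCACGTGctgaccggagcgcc
Sycp3: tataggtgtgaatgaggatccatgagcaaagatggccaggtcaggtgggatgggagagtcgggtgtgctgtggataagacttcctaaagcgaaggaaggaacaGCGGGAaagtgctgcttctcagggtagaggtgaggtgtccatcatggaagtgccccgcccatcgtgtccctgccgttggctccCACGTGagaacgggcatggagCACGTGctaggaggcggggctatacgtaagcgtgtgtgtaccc
Tex101: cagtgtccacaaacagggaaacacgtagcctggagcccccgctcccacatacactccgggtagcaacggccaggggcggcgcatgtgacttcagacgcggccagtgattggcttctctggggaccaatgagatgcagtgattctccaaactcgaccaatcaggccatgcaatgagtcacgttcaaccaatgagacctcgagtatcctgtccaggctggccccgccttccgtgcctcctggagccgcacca

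The E-box began 94 bases before the start in Sycp1, the pair in Hormad1 at 57 and 20, and the pair in Sycp3 at 64 and 43. Tex101 held 4 CCAAT boxes, at 144, 127, 96 and 65 bases before its start, and no E-box. The log2 ratio of CPM + 1 in KO over WT cells was at least 1 at both stages for Stra8, Sycp1, Tex101 and Mov10l1. Of these 4 genes, 2 held the E-box. The ratio stayed below 1 at both stages for Dazl, Ddx4, Mael, Sycp3 and Hormad1, of which 4 held the E-box. This split rests on calls at the limit. In epiblast-like cells Sycp1 had a log2 ratio of 1.00 and Hormad1 of 0.99, each at 2.08-fold. Over 13 alternatives the lowest values there were 0.80 for Sycp1 and 0.64 for Mov10l1. Whether the E-box goes with a difference between the lines was not tested.

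A measure of free RNA came from feeder-derived cells of the ESC library. Cells with UMIs of at least 5 of 10 fibroblast markers and at most 5 UMIs of 6 pluripotency markers numbered 94 (median 12224 UMIs); the second limit was set after the values had been seen. In these 94 cells Hormad1 had 3 UMIs, Stra8 and Mael had 2 each, Dmrt1, Ddx4, Sycp1, Sycp3 and Tex101 had 1 each, and Dazl and Mov10l1 had 0, which allows up to 2.37 CPM by the limit of 3 UMIs of the total. The 48h-EpiLC library held no cell with 5 fibroblast markers, so its free RNA was not measured in this way.

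Stra8, the retinoic acid-responsive factor that sets off meiotic entry, had the largest ratio of the 10 in each of the 4 comparisons. Its gene is at chromosome 6 (34920163 to 34939344, plus strand, GRCm38). Stra8 was 9.59 CPM (7.30 to 12.4) in WT ESCs, 47.9 CPM (45.9 to 49.97) in KO ESCs, 2.09 CPM (1.11 to 3.57) in WT 48h-EpiLCs and 13.0 CPM in KO 48h-EpiLCs. The WT 48h-EpiLC value rests on 13 UMIs. It lies within the Stra8 interval of the feeder-derived cells of the ESC library (1.58 CPM, 0.191 to 5.71). Free RNA of the 48h-EpiLC library was not measured, so this value cannot be told from background. All 4 classes differed from their neighbours beyond counting error, with KO ESCs highest, then KO 48h-EpiLCs, WT ESCs and WT 48h-EpiLCs. At least 1 Stra8 UMI was seen in 11.7% of WT ESCs (8.86% to 15.1%), 38.8% of KO ESCs (37.1% to 40.6%), 3.26% of WT 48h-EpiLCs (1.70% to 5.63%) and 17.8% of KO 48h-EpiLCs (16.4% to 19.2%). With each cell thinned to 5000 UMIs the shares were 4.15%, 19.4%, 0.817% and 6.50% in the same order. The share among the 94 feeder-derived cells of the ESC library was 2.13% (0.259% to 7.48%), below the WT ESC share with no overlap of the intervals. In the KO classes Stra8 was also the most unevenly spread of the 10, with a variance of 1.35 times its mean in thinned ESCs and 1.28 times in thinned 48h-EpiLCs, whereas in the WT classes it was 0.961 and 0.995 times the mean and other genes were higher. In KO ESCs up to 10 UMIs were seen in 1 cell before thinning, and 7.69% of KO ESCs held 3 or more.

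Dmrt1, a DM-domain transcription factor of the testis and of early germ cells on chromosome 19 (25505618 to 25604329, plus strand), was higher in the 48h-EpiLC than in the ESC library in WT cells and lower in KO cells. It was 6.99 CPM (5.06 to 9.41) in WT ESCs, 23.6 CPM in KO ESCs, 13.7 CPM (10.9 to 16.9) in WT 48h-EpiLCs and 14.6 CPM in KO 48h-EpiLCs. KO ESCs stood above the rest and WT ESCs below, and the 48h-EpiLCs of the lines did not differ beyond counting error (1.07-fold, 0.854 to 1.35). Thinned shares of cells with a UMI were 2.30%, 10.7%, 6.81% and 7.41%, against 9.43%, 26.9%, 20.4% and 23.7% before thinning.

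Dazl, an RNA-binding translational regulator of germ cells on chromosome 17 (50279395 to 50293636, minus strand), and Ddx4, the germ cell RNA helicase Vasa on chromosome 13 (112598333 to 112652475, minus strand), showed little difference between the classes. Dazl was 7.80, 10.2, 7.40 and 9.48 CPM in WT ESCs, KO ESCs, WT 48h-EpiLCs and KO 48h-EpiLCs. Ddx4 was 12.2, 11.04, 11.6 and 10.4 CPM in the same order. No neighbours in either order differed beyond counting error, and the intervals of the KO over WT ratio ran from 0.968 to 1.80 for Dazl and from 0.709 to 1.17 for Ddx4 in ESCs. The thinned shares lay between 3.27% and 4.67% for Dazl and between 4.82% and 5.45% for Ddx4.

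Mael and Mov10l1 both serve the piRNA pathway that restrains transposons, Mael (chromosome 1, 166201201 to 166238747, minus strand) as a component of the nuage and Mov10l1 (chromosome 15, 88982909 to 89055152, plus strand) as the helicase that starts piRNA processing. Mael was 11.05 CPM in WT ESCs, 8.77 in KO ESCs, 12.9 in WT 48h-EpiLCs and 12.3 in KO 48h-EpiLCs. No neighbours in order of level differed beyond counting error, but KO 48h-EpiLCs were 1.40-fold above KO ESCs (1.24 to 1.59). Mov10l1 was 5.69 CPM (3.96 to 7.91) in WT ESCs and 19.11 CPM in KO ESCs, and 6.11 CPM (4.32 to 8.39) in WT and 13.7 CPM in KO 48h-EpiLCs. Both KO classes of Mov10l1 lay above both WT classes, and the WT classes did not differ beyond counting error (1.07-fold, 0.661 to 1.75). Mov10l1 was seen in 2.07%, 9.002%, 2.72% and 7.51% of thinned cells, and in 5.98%, 22.5%, 9.78% and 22.6% before thinning.

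Sycp1 and Sycp3 build the synaptonemal complex, the former its transverse filaments and the latter its lateral elements, and Hormad1 binds the unsynapsed chromosome axis. Sycp1 (chromosome 3, 102818499 to 102936100, minus strand) was 15.1 CPM (12.2 to 18.5) in WT ESCs, 50.8 CPM in KO ESCs, 14.6 CPM (11.8 to 17.96) in WT 48h-EpiLCs and 30.4 CPM in KO 48h-EpiLCs. The WT classes did not differ beyond counting error (1.03-fold, 0.765 to 1.39), and both KO classes lay above them. Sycp1 was seen in 7.14%, 21.1%, 7.63% and 12.9% of thinned cells, and in 14.9%, 44.3%, 19.8% and 40.1% before thinning.

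Sycp3 (chromosome 10, 88459569 to 88473236, plus strand) followed stage more than line, at 11.05 CPM in WT ESCs, 14.4 in KO ESCs, 27.3 in WT 48h-EpiLCs and 23.5 in KO 48h-EpiLCs. The 48h-EpiLC classes lay above the ESC classes and did not differ from each other beyond counting error (1.17-fold, 0.988 to 1.37). Exons of Sycp3 overlap exons of Chpt1 on the opposite strand. Cell Ranger, run by the authors at default parameters, assigns reads to genes on their own strand. Hormad1 (chromosome 3, 95559677 to 95587671, plus strand) was 20.5 CPM in WT ESCs, 33.0 in KO ESCs, 10.1 in WT 48h-EpiLCs and 21.1 in KO 48h-EpiLCs, and its KO 48h-EpiLCs and WT ESCs did not differ beyond counting error (1.03-fold, 0.856 to 1.25).

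Tex101, a germ cell surface glycoprotein on chromosome 7 (24668007 to 24676675, minus strand), was near the detection limit in WT cells. It was 1.79 CPM (0.892 to 3.20) in WT ESCs, from 11 UMIs, and 1.77 CPM (0.883 to 3.16) in WT 48h-EpiLCs, also from 11 UMIs. KO ESCs had 8.12 CPM and KO 48h-EpiLCs 8.87 CPM, which did not differ beyond counting error (1.09-fold, 0.954 to 1.25). Before thinning it was seen in 2.07% of WT ESCs (0.9503% to 3.89%), against 1.06% of the feeder-derived cells (0.0269% to 5.79%), so its WT share was not distinguishable from background at this depth, while the KO ESC share was 10.3% (9.27% to 11.5%).

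**Figure D1:**
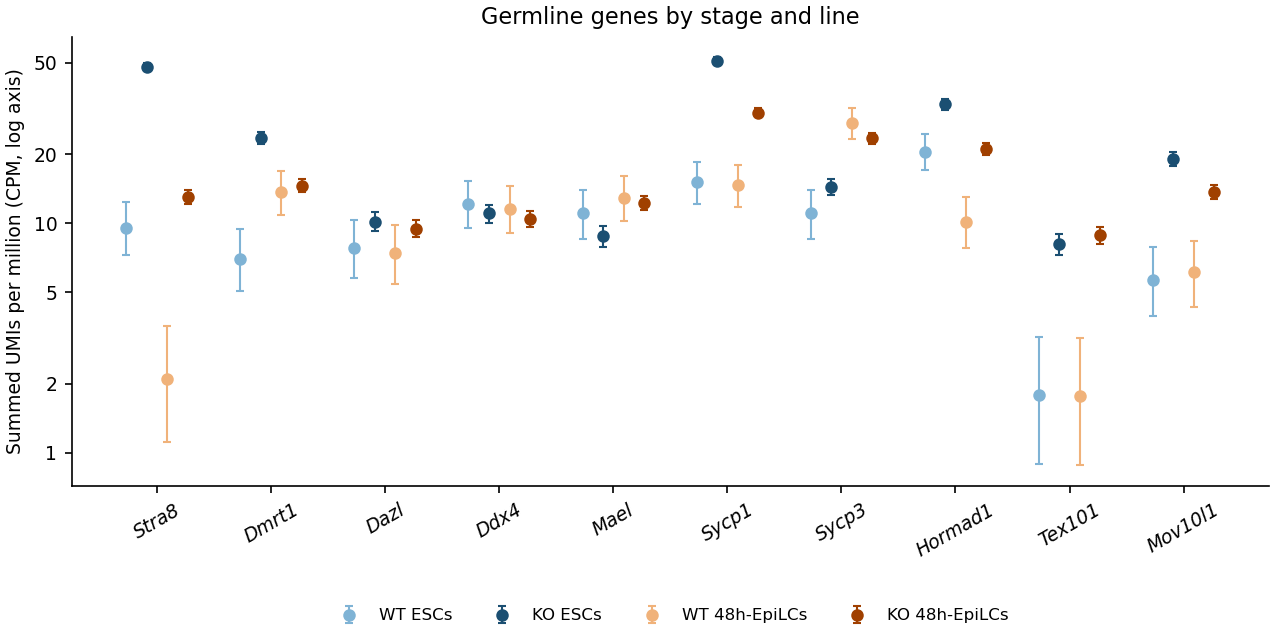
Level from summed UMIs (CPM, log axis) of the 10 germline genes in WT and KO ESCs and WT and KO 48h-EpiLCs, 1 point per class with exact 95% Poisson bars. KO ESCs stand apart for Stra8 (47.9 against 9.59 CPM in WT ESCs) and Sycp1 (50.8 against 15.1 CPM), whereas the 4 points of Ddx4 lie between 10.4 and 12.2 CPM.

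The first comparison, KO over WT in ESCs, asked which germline genes differ between the lines before differentiation. The log2 ratio of CPM + 1 was 1 or more, that is, 2-fold higher in KO cells, for 5 of 10 genes (Stra8, Dmrt1, Sycp1, Tex101 and Mov10l1), where 5.25% of 12714 genes were and 6.87% were past 2-fold in either direction. None was lower by 2-fold, where 1.63% of genes were, and the median log2 ratio was 1.13 over the 10 genes and 0.14 over all. Stra8 was 4.99-fold higher (3.86 to 6.58), Tex101 4.54-fold (2.51 to 9.18), Dmrt1 3.38-fold (2.49 to 4.70), and Sycp1 and Mov10l1 3.36-fold each (2.73 to 4.18 and 2.40 to 4.86). The gene next below the limit was Hormad1, at 1.61-fold (1.34 to 1.95). Sycp3 was 1.30-fold higher (1.01 to 1.70), and the intervals of Dazl, Ddx4 and Mael included 1.

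Because tdTomato was seen in few cells, the WT class was small and its purity mattered. When WT ESCs were taken instead as cells with neither tdTomato nor Y-linked UMIs, a class that must include KO cells, 3 genes (Stra8, Sycp1 and Mov10l1) stayed 2-fold higher, and the log2 ratio of Stra8 fell from 2.21 to 1.30. In the ESCs left unassigned, Stra8 was 27.5 CPM, Sycp1 29.3 CPM and Tex101 5.07 CPM, each between the WT and KO levels. Markers of other cells differed between the WT and KO classes as well. Of 9 feeder fibroblast markers tested, 4 (Col1a1, Col1a2, Col5a2 and Dcn) were 2-fold higher in KO ESCs. Summed levels over all 10 markers were 150 CPM, against 124 CPM in WT ESCs. Of 10 primitive endoderm markers 2 were 2-fold higher (Sox17 and Foxq1), with sums of 285 CPM against 264 CPM. Fn1 made up most of the fibroblast sums (104 CPM in KO and 111 CPM in WT ESCs). Sparc made up most of the endoderm sums (203 and 209 CPM). These sums therefore hardly reflect the markers named as 2-fold higher. Feeder-derived cells carry Y-linked RNA themselves (79.8 CPM in the 94 cells above), so the KO rule admits them: 53 of 2978 KO ESCs (1.78%) had UMIs of at least 5 fibroblast markers, against 1 of 435 WT ESCs (0.230%). With cells of other types left out by their markers, 5 of the germline genes were still 2-fold higher.

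In 48h-EpiLCs the same comparison gave 4 of 10 genes higher by 2-fold in KO cells (Stra8, Sycp1, Tex101 and Mov10l1), where 3.33% of 12656 genes were and 4.6% were past 2-fold in either direction, and none lower, where 1.26% were. The median log2 ratio was 0.65 over the 10 genes and 0.07 over all. Stra8 was 6.22-fold higher (3.62 to 11.7), Tex101 5.02-fold (2.78 to 10.1) and Mov10l1 2.25-fold (1.62 to 3.20). The WT levels under the Stra8 and Tex101 ratios rest on 13 and 11 UMIs and were not told from background. Sycp1, at 2.08-fold (1.68 to 2.59) and a log2 ratio of 1.00, lay just inside the limit, and Hormad1, at 2.08-fold (1.61 to 2.72) and a log2 ratio of 0.99, just outside it. With TMM scaling the log2 ratio of Sycp1 was 0.96, and the lowest values over 13 alternatives were 0.80 for Sycp1 (thinned) and 0.64 for Mov10l1 (WT cells of any Y-linked count), so these calls depend on the setting. Stra8 and Tex101 stayed past 2-fold in all 13, but with WT cells of any Y-linked count their log2 ratios fell from 2.18 to 1.52 and from 1.83 to 1.33, and with WT cells as those without tdTomato and Y-linked UMIs to 1.18 and 1.19.

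**Figure D2:**
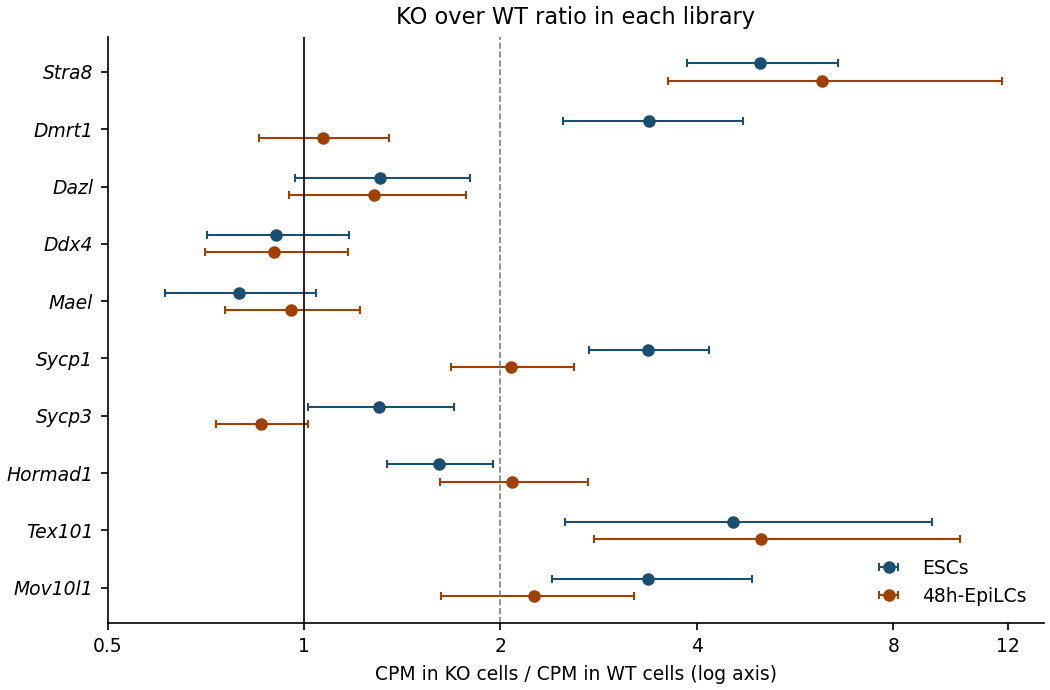
Ratio of CPM in KO cells to CPM in WT cells (log axis) for the 10 germline genes in ESCs and 48h-EpiLCs, with exact 95% intervals; the solid line is 1 and the dashed line 2. Stra8 (4.99 and 6.22) and Tex101 (4.54 and 5.02) lie to the right of 2 in both libraries with their whole intervals, and Dmrt1 does so in ESCs (3.38) and not in 48h-EpiLCs (1.07).

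The ratios of Dmrt1 and Sycp1 in the 2 libraries had intervals that did not overlap (2.49 to 4.70 and 0.854 to 1.35 for Dmrt1, 2.73 to 4.18 and 1.68 to 2.59 for Sycp1). For Sycp1 the KO level moved from 50.8 to 30.4 CPM between the libraries while the WT level stayed at 15.1 and 14.6 CPM. For Dmrt1 both lines moved, in opposite directions.

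Between the libraries, WT cells differed by 2-fold in 2 of the 10 genes, where 12.4% of 12554 genes did. Sycp3 was 2.47-fold higher in 48h-EpiLCs (1.86 to 3.33), where 6.75% of genes were higher by 2-fold. Stra8 was 4.59-fold lower (2.49 to 9.12), where 5.62% were lower, and its 48h-EpiLC level rests on 13 UMIs. Hormad1 was 2.02-fold lower (1.48 to 2.78), just outside the limit at a log2 ratio of -0.95. Dmrt1 was 1.96-fold higher (1.34 to 2.89), and the intervals of the other 6 genes included 1. The median log2 ratio of the 10 genes was -0.03, beside 0.05 over all genes.

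In KO cells only Stra8, of the 10, differed by 2-fold between the libraries, where 8.03% of 12946 genes did. It was 3.68-fold lower in 48h-EpiLCs (3.39 to 4.004), where 5% of genes were lower by 2-fold, and no gene of the 10 was higher by 2-fold, where 3.04% were. With more UMIs in the KO classes, smaller differences stood clear of counting error: Sycp1 was 1.67-fold lower (1.57 to 1.78), Dmrt1 1.62-fold lower (1.48 to 1.77), Hormad1 1.56-fold lower (1.45 to 1.69) and Mov10l1 1.39-fold lower (1.26 to 1.53). Sycp3 was 1.63-fold higher (1.48 to 1.79) and Mael 1.40-fold higher (1.24 to 1.59). Dazl, Ddx4 and Tex101 had intervals that included 1. Markers of other cell types also differed between the libraries, with summed fibroblast markers at 124 and 46.3 CPM in WT and 150 and 57.8 CPM in KO cells, and summed primitive endoderm markers at 264 and 119 CPM in WT and 285 and 150 CPM in KO cells (ESCs, then 48h-EpiLCs). Fn1 made up most of each fibroblast sum and Sparc most of each endoderm sum. With cells of other types left out, 2 of the 10 genes in WT cells and 1 in KO cells were past 2-fold.

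**Figure D3:**
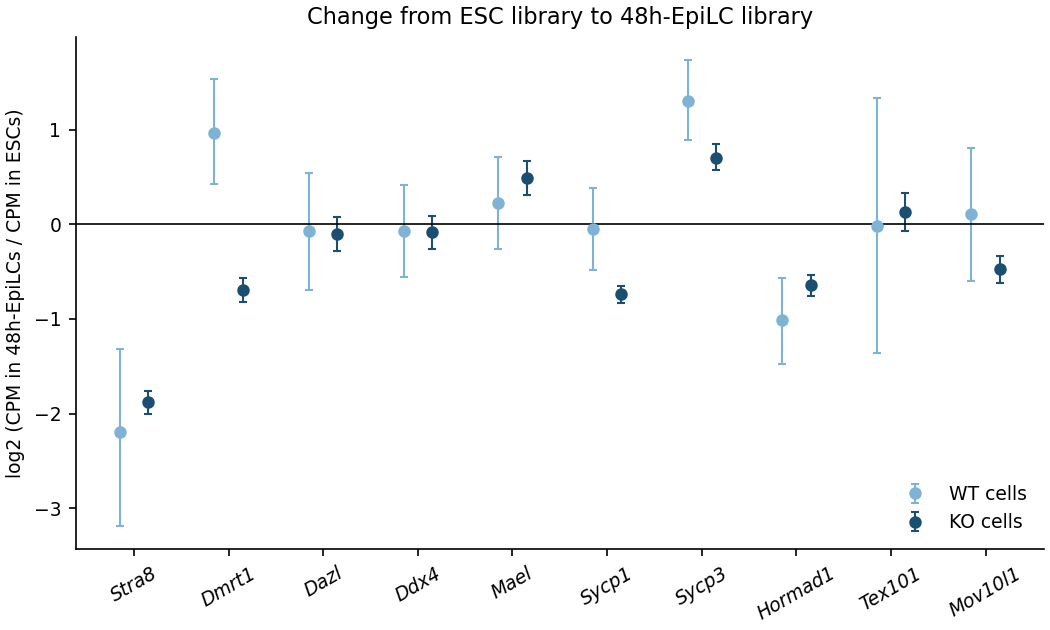
Log2 ratio of CPM in 48h-EpiLCs to CPM in ESCs for the 10 germline genes in WT and KO cells, with exact 95% intervals; 0 is no difference between the libraries. Stra8 lies below 0 and Sycp3 above 0 in both lines, and Dmrt1 lies at 0.97 in WT and -0.70 in KO cells.

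Detection of several of the 10 genes in the same cell was then counted at 5000 UMIs per cell. At least 1 gene was seen in 36.9% of WT ESCs (32.3% to 41.6%), 64.9% of KO ESCs (63.2% to 66.6%), 42.2% of WT 48h-EpiLCs (37.1% to 47.5%) and 53.4% of KO 48h-EpiLCs (51.6% to 55.2%). Before thinning these shares were 66.4%, 89.2%, 76.9% and 90.7%. Cells with 3 or more genes made up 0.922% (0.252% to 2.34%), 7.85% (6.91% to 8.88%), 0.817% (0.169% to 2.37%) and 4.38% (3.67% to 5.18%), and the highest number in 1 cell was 3, 6, 3 and 4. The mean number per cell was 0.449, 1.01, 0.531 and 0.765. Shares of cells with several genes rise with the detection of each single gene. They were not set against shares expected from the single-gene rates, so they do not show that the genes occur together. Thinning left out 1 WT and 23 KO ESCs and 1 WT and 9 KO 48h-EpiLCs.

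Pairs of genes were then looked at cell by cell. In KO ESCs a Sycp1 UMI was found in 24.0% (20.5% to 27.7%) of the 572 cells with Stra8 and in 20.4% (18.8% to 22.1%) of the 2383 cells without it. In WT ESCs it was found in 27.8% (9.69% to 53.5%) of only 18 cells with Stra8 and in 6.25% (4.12% to 9.02%) of the 416 without. Pearson's r over the 45 pairs of genes had medians of -0.02, 0.01, -0.02 and 0.01 in WT ESCs, KO ESCs, WT 48h-EpiLCs and KO 48h-EpiLCs, with 0.157, 0.0548, 0.170 and 0.0632 as the highest values, over cells of 1 library each. At counts this sparse such values are no finding.

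**Figure D4:**
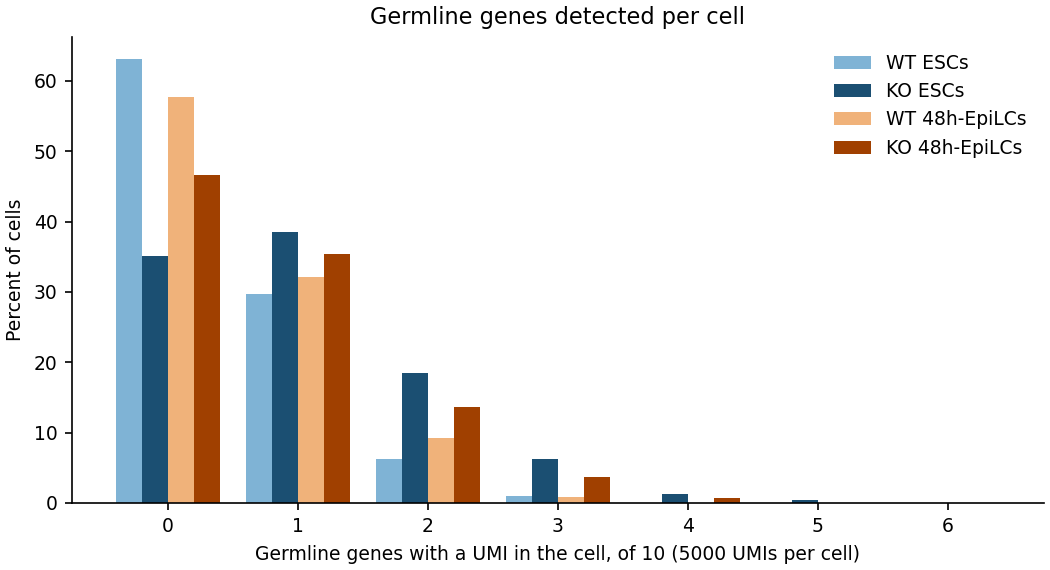
Percent of cells by how many of the 10 germline genes had a UMI, at 5000 UMIs per cell, in WT and KO ESCs and 48h-EpiLCs. Cells with none make up 63.1% of WT ESCs and 35.1% of KO ESCs, and cells with 4 or more are seen only in the KO classes, which hold more cells.

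Other genes of the same programmes were counted from lists, as a setting for the 10. In ESCs, where 5.25% of all genes were higher and 1.63% lower by 2-fold in KO cells, KO cells were higher by 2-fold for 1 of 6 tested genes of germline transcription and meiotic entry, 2 of 14 of the piRNA pathway and germ granule (1 lower), 2 of 9 of the synaptonemal complex, axis and meiotic cohesin, 1 of 10 of meiotic recombination and 2 of 8 other germ cell genes. The 3 with the largest ratios were Usp26, a testis-specific deubiquitinase gene on the X chromosome (14.3 against 2.76 CPM, 5.17-fold, 3.20 to 8.93), Rec114, needed for meiotic DNA breaks (25.6 against 8.45 CPM, 3.03-fold, 2.30 to 4.09), and Sohlh2, a germ cell bHLH factor (9.14 against 2.92 CPM, 3.12-fold, 1.95 to 5.33).

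In 48h-EpiLCs, where 3.33% of all genes were higher and 1.26% lower, the corresponding counts were 0 of 8, 3 of 16, 1 of 9, 2 of 10 (1 lower) and 2 of 9. In lists this short, a count of 1 lies near those shares in both libraries. Rec114 was 36.5 against 7.23 CPM (5.04-fold, 3.75 to 6.93), and Hormad2, the partner of Hormad1 on the axis, was 17.5 against 4.18 CPM (4.18-fold, 2.84 to 6.43). Genes of primordial germ cell specification were higher by 2-fold in KO cells for 5 of 6 tested (Prdm1, Nanos3, Dppa3, Dnd1 and Kit). The median log2 ratio of the list was 1.23 beside 0.07 over all genes. Nanos3 had only 2 UMIs in WT 48h-EpiLCs and Prdm1 only 10, so their ratios are uncertain. In ESCs 0 of 7 were higher by 2-fold, with a median log2 ratio of 0.46 beside 0.14 over all genes. Kit, the receptor for stem cell factor, was 13.5 against 4.02 CPM (3.37-fold, 2.26 to 5.23). In ESCs Kit was 15.5 CPM in KO against 7.47 CPM in WT cells, just within the limit. Pluripotent cell markers also differed, with Zfp42 and Esrrb of 6 higher by 2-fold in KO 48h-EpiLCs.

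Between the libraries, WT cells were higher in 48h-EpiLCs for 2 of 7 genes of germline transcription, 4 of 16 of the piRNA pathway, 2 of 9 of the synaptonemal complex (1 lower), 2 of 10 of recombination (1 lower), 2 of 7 other germ cell genes (2 lower) and 0 of 6 of germ cell specification (2 lower), beside 6.75% higher and 5.62% lower over all genes. Tex14, an intercellular bridge gene, was 6.25-fold lower (3.67 to 11.4), Tdrkh, a Tudor-domain piRNA factor, 5.67-fold higher (2.96 to 11.9), and Rpl10l, the testis copy of a ribosomal protein gene, 3.32-fold lower (2.82 to 3.92). In KO cells the counts were 2 of 8, 2 of 16, 1 of 9, 0 of 9, 0 of 9 (1 lower) and 1 of 7 (2 lower), beside 3.04% higher and 5% lower over all genes. Dppa3, which protects methylation in the early embryo, was 3.76-fold higher (3.44 to 4.12), Rpl10l 3.42-fold lower (3.18 to 3.69) and Meioc, a meiotic RNA regulator, 2.42-fold higher (2.04 to 2.87). Rpl10l is a near copy of another gene, so its counts are uncertain.

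Genes of the silencing machinery formed the last list. Of 22 genes for PRC1.6 subunits, DNA methylation and H3K9 methylation, 0 differed by 2-fold between the lines in ESCs or in 48h-EpiLCs, with median log2 ratios of 0.14 and 0.12. Over all genes 6.87% and 4.6% were past 2-fold, so a count of 0 among 22 is near that background. Between the libraries, E2f6, Yaf2 and Dnmt3b were higher and L3mbtl2 and Ehmt2 lower by 2-fold in WT 48h-EpiLCs. Over all genes in WT cells 12.4% were past 2-fold. In KO cells 0 of 22 were past the limit, beside 8.03% of all genes. The named genes nevertheless moved in the same directions in KO cells, some of them close to the limit. From KO ESCs to KO 48h-EpiLCs, Ehmt2 went from 161 to 80.2 CPM, Dnmt3b from 258 to 490 CPM and E2f6 from 11.8 to 21.8 CPM. L3mbtl2 moved less, from 118 to 86.5 CPM. Whether the lines differed in these changes was not tested.

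Genes with the nearest pattern over the 4 classes were found among 9383 genes by the Euclidean distance of log2(CPM + 1), centred over the 4 classes. For Stra8 they included Fam25c (distance 0.072) and Phf11d (0.366). For Sycp1 they were Mov10l1 (0.217), St6galnac4 (0.256) and Fbxo6 (0.273), so that the nearest gene was another of the 10. For Dmrt1 they were Dsg2 (0.124), Crip1 (0.278) and Ppm1l (0.291), for Mov10l1 they were Cdc42ep5 (0.0943), Tcp11 (0.191) and Pramef12 (0.214), and for Tex101 they were Gm47283 (0.170), Rmc1 (0.222) and Creld1 (0.286). Hormad1 was nearest to Pianp (0.127), Epb41l1 (0.136) and Pxn (0.138). The remaining genes lay closer to their nearest gene: Dazl was 0.0185 from Chmp5, Ddx4 0.0185 from Srsf2, Mael 0.0417 from Igsf9b and Sycp3 0.0253 from Necab3. With 4 points per gene such likeness says little.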

How the data were processed

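The deposited matrices held UMI counts for each gene in each barcode. The authors obtained them from Cell Ranger (3.0.2) on mm10 with the tdTomato coding sequence added; no correction for free RNA is stated, and Seurat (4) is also named. There were 13184 ESC and 12427 48h-EpiLC barcodes. The cell filter was at least 1000 genes and no more than 10% mitochondrial UMIs. UMIs were summed per class and scaled to the class total (CPM), and genes with a mean of at least 1 CPM were compared by the log2 ratio of CPM + 1, called past 2-fold at 1 or more either way. That scale understates the change of low genes. Class totals were 6154790, 44110356, 6219834 and 59291903 UMIs (WT and KO ESCs, WT and KO 48h-EpiLCs), and a count of 0 was given a limit of 3 UMIs. No doublet caller was run; leaving out cells above the 90th percentile of UMIs was an alternative. Python 3.11.15, scipy 1.17.1 and edgeR 4.0.16 (TMM only) were used, the calls were tested on simulated data, and 15 alternatives were tried. Positions come from GENCODE M21. The genes, lists and tests were chosen with earlier results of these data known. Named beyond the 10 are the 3 list genes with the largest ratios at a mean of 5 CPM or more, list genes past 2-fold where 5 or fewer (named after their values were seen), and the 3 nearest genes, of which 1 is not reported here.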

Additional observations from a re-analysis of the deposited data

Results flagged for a closer look

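The change of Dmrt1 between the libraries ran in opposite directions in the lines. Its log2 ratio of CPM in 48h-EpiLCs to CPM in ESCs was 0.97 in WT cells and -0.70 in KO cells, and with 1 sum of cells per class the difference between these ratios was not tested. The WT ratio rests on 43 UMIs in ESCs and 85 in 48h-EpiLCs, and on log2 of CPM + 1 it ranged from -0.11 to 1.44 over the alternatives, with the value below 0 under the class without tdTomato and Y-linked UMIs. The KO ratio, on the same scale, ranged from -0.73 to -0.59.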

How the results depend on the processing

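No paired analysis was possible because each stage had 1 library and the labels give no replicate numbers that could pair them. Of 520 log2 ratios of single germline genes under alternatives, 506 moved within their counting interval, 14 moved beyond it and 19 changed sign; the main values of these were at most 0.30 either way except that of Dmrt1 between the libraries in WT cells, which went from 0.88 to -0.11. Of 400 shares of cells, 309 stayed within their interval and 91 moved. The number of the 10 genes past 2-fold between the lines in 48h-EpiLCs was 2 with KO cells at 1 or more Y-linked UMIs, 2 with WT cells of any Y-linked count, and 2 with WT cells as those without tdTomato and Y-linked UMIs. That last setting gave 3 in ESCs, and 131 genes past 2-fold over all genes in ESCs and 176 in 48h-EpiLCs, in place of 874 and 582; it mixes the lines by its construction. WT cells of any Y-linked count gave 355 genes in 48h-EpiLCs, and thinning gave 1002; the cause was not tested. Over all genes a pseudocount of 0.1 CPM gave 1475 (ESCs), 1005 (48h-EpiLCs) and, between the libraries in KO cells, 1620 in place of 1040. A mean of at least 5 CPM, which tests fewer genes, gave 468, 305, 870 (WT cells between the libraries, in place of 1553) and 621. The WT classes hold 6154790 and 6219834 UMIs, so genes near 2 CPM there, Tex101 and Stra8 among them, have wide intervals.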
